A study of Mus musculus with 6 samples.

Results

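The genes described here are 40 mouse genes of the MYC network and of ribosome production, listed by name and looked up by symbol in a count table of 49585 genes. They comprise 7 members of the MYC network, 3 metabolic enzymes that are textbook MYC targets, and 30 nucleolar proteins that make, modify or assemble ribosomes. Of the 40, 39 had enough counts to be tested among 15812 genes. The exception was Wdr74, a 60S assembly factor, with 1 count in each of the K3117 NT and K3117 Low libraries and none in the other 4. Since the annotation used for counting is not given in the sources used here, these counts do not show how much Wdr74 the cells express.

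Their RNA was measured by RNA-seq in 6 libraries of mouse acute myeloid leukemia cells that carry the KMT2A-MLLT3 fusion, which every group shares. Marrow of diseased mice was given DOT1L, a histone H3 methyltransferase recruited by the fusion, and the cells were sorted into a weakly and a strongly expressing population. RNA was taken 3 days after the sort, from cells kept in DMEM with serum, interleukin 3, interleukin 6 and stem cell factor. The 3 groups of 2 libraries are labelled NT, DOT1L Low and DOT1L High, hereafter Low and High, and each holds 1 library of K3117 and 1 of K3174. The labels do not expand NT or say whether its cells were transduced or sorted, so handling and DOT1L cannot be told apart in a comparison with NT. K3117 and K3174 are read from the titles as 2 leukemias. Whether they come from separate mice is not stated, and p-values then measure only the spread between these samples.

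MYC binds DNA only as a dimer with MAX, at the E-box CACGTG and related sites, and recruits coactivators there. MXD1, MXI1, MXD4 and MNT bind the same partner and the same sites but recruit SIN3 and histone deacetylases, so they oppose MYC, and MXD1 and MXI1 are known to increase as myeloid cells mature. Among the best known outputs of MYC are ribosomal RNA synthesis by RNA polymerase I, the nucleolar machinery that processes that RNA into 40S and 60S subunits, and enzymes of nucleotide and polyamine synthesis.

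Because the E-box is the letter sequence that MYC-MAX and MXD-MAX dimers share, the promoter windows of the members were searched for CACGTG, which reads the same on both strands. RefSeq windows (GRCm38.p6, 250 bases before to 50 after the start site) were matched for 34 of the 40, all but Bop1, Fbl, Myc, Npm1, Rrp12 and Srm. The motif was found in 9 of the 34 windows (26.5%), against 8.09% of the 27025 genes of the table and 11.7% of the 10355 tested genes with a window. The 9 matches are shown 5′ to 3′ on the strand of the gene with up to 12 bases on each side, with the E-box in capitals.
Max: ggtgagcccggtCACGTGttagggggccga
Mnt: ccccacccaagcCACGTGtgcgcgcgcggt
Mxd4: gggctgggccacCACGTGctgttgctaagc
Mybbp1a: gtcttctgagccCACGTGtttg
Utp20: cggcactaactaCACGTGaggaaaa
Wdr43: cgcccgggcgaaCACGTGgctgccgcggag
Tsr1: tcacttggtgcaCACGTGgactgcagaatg
Pes1: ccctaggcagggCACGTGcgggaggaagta
Nop2: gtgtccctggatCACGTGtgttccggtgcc
These lie at chr12:76962234-76962263 on the minus strand for Max, chr11:74830789-74830818 on the plus strand for Mnt and chr5:34187912-34187941 on the minus strand for Mxd4. The nucleolar genes have theirs at chr11:72441355-72441376 (Mybbp1a, plus), chr10:88826765-88826789 (Utp20, minus), chr17:71616220-71616249 (Wdr43, plus), chr11:74898092-74898121 (Tsr1, plus), chr11:3963965-3963994 (Pes1, plus) and chr6:125131811-125131840 (Nop2, plus). The E-box began between 219 bases before the start site, in Mxd4, and 41 bases after it, in Mybbp1a. The windows of Mxd1, Mxi1 and Cad, the members whose levels differed between High and NT, hold no CACGTG. The windows end 50 bases after the start site, and sites farther off were not searched, so these genes may have an E-box elsewhere. Among nucleolar members with a window, the log2 fold change between High and NT had a median of -0.20 for the 6 with the motif and -0.24 for the 19 without it. A match describes letters in a window and shows neither binding nor its lack.

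Total counts ran from 22908445 (K3174 NT) to 33265848 (K3174 Low), and the 40 genes took between 0.985% and 1.33% of a library. Mouse Dot1l was counted at 127.8, 183.7 and 149.8 CPM (the count scaled to library size with TMM factors) in K3117 NT, Low and High and at 158.0, 152.0 and 136.4 CPM in K3174. These counts did not follow the order of the labels, and they check nothing if the introduced DOT1L does not align to the mouse gene, so groups are called by their labels. All 9 leukemia and myeloid progenitor markers were counted in every library, from 26.5 CPM of Itgam in K3174 NT upwards. They summed to 1586.8, 2162.0 and 2608.1 CPM in K3117 NT, Low and High and to 1994.6, 3647.3 and 3930.7 CPM in K3174, and 4 of the 9 (Kit, Mpo, Spi1 and Itgam) rose and 2 (Hoxa9 and Meis1) fell in High over NT. T cell markers summed to between 0.101 and 0.391 CPM (Cd3e and Cd8a at 0), erythroid markers to between 1.02 and 5.47 CPM, and stromal and endothelial markers, mostly Pecam1, to between 129.2 and 229.8 CPM (Col1a2 and Cxcl12 at 0). Markers of mature myeloid cells moved with the labels too. In this paragraph, a marker rose or fell if it passed the edgeR test described below. By that rule 10% of all tested genes were higher and 7.32% lower in High over NT. Late neutrophil markers summed to 367.7, 458.9 and 2494.1 CPM in K3117 NT, Low and High and to 315.2, 1575.3 and 7839.2 CPM in K3174, and 12 of the 13 tested of 14 rose in High over NT. Mast cell and basophil markers summed to 121.0, 186.2 and 473.3 CPM in K3117 and to 202.9, 279.9 and 850.5 CPM in K3174, with 5 of 7 tested rising. Monocyte and macrophage markers ran from 741.9 to 1405.2 CPM (C1qa at 0), with 4 of 8 tested rising and 2 falling. The part of these cells in the results below was not tested. In bulk RNA, fewer cells that express a gene and less of its RNA per cell cannot be told apart.

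Among the 39 tested members, 2 MYC antagonists rose and 1 MYC target enzyme fell from NT to High, and the nucleolar genes had small negative differences of which none passed. Each gene was tested by edgeR's quasi-likelihood method, blocked by leukemia, with a threshold of 0.05 on the Benjamini-Hochberg adjusted p over all tested genes. By that rule 10% of all tested genes were higher and 7.32% lower. In this fit the 3 calls among 39 members are a smaller share than the 17.3% called over all genes. DESeq2 called the same 3 genes, with 9.35% of all genes higher and 6.04% lower. At an unadjusted p under 0.05, 3 members were higher and 12 lower, against 15.5% and 13.2% of all genes. Of the calls over all genes 57.8% were higher, against 49.1% with library sizes alone and 43.9% with upper quartile factors. The count of members depended on the same choice. With library sizes alone 6 passed, 2 higher and 4 lower (17.4% of all genes). With upper quartile factors 12 passed, 2 higher and 10 lower (18.7% of all genes). With every gene that had a count 7 of 40 passed, 2 higher and 5 lower (12.8% of all genes). Without the replicate block none of the 39 passed, and 493 genes (3.12%) did over all. Leaving out the K3117 NT library raised the count to 22 members, 2 higher and 20 lower, while the share over all genes rose to 26.6%. Leaving out K3117 High gave 5 (13.6% of all genes), and leaving out K3174 High gave 2 (11.7% of all genes).

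**Figure D1:**
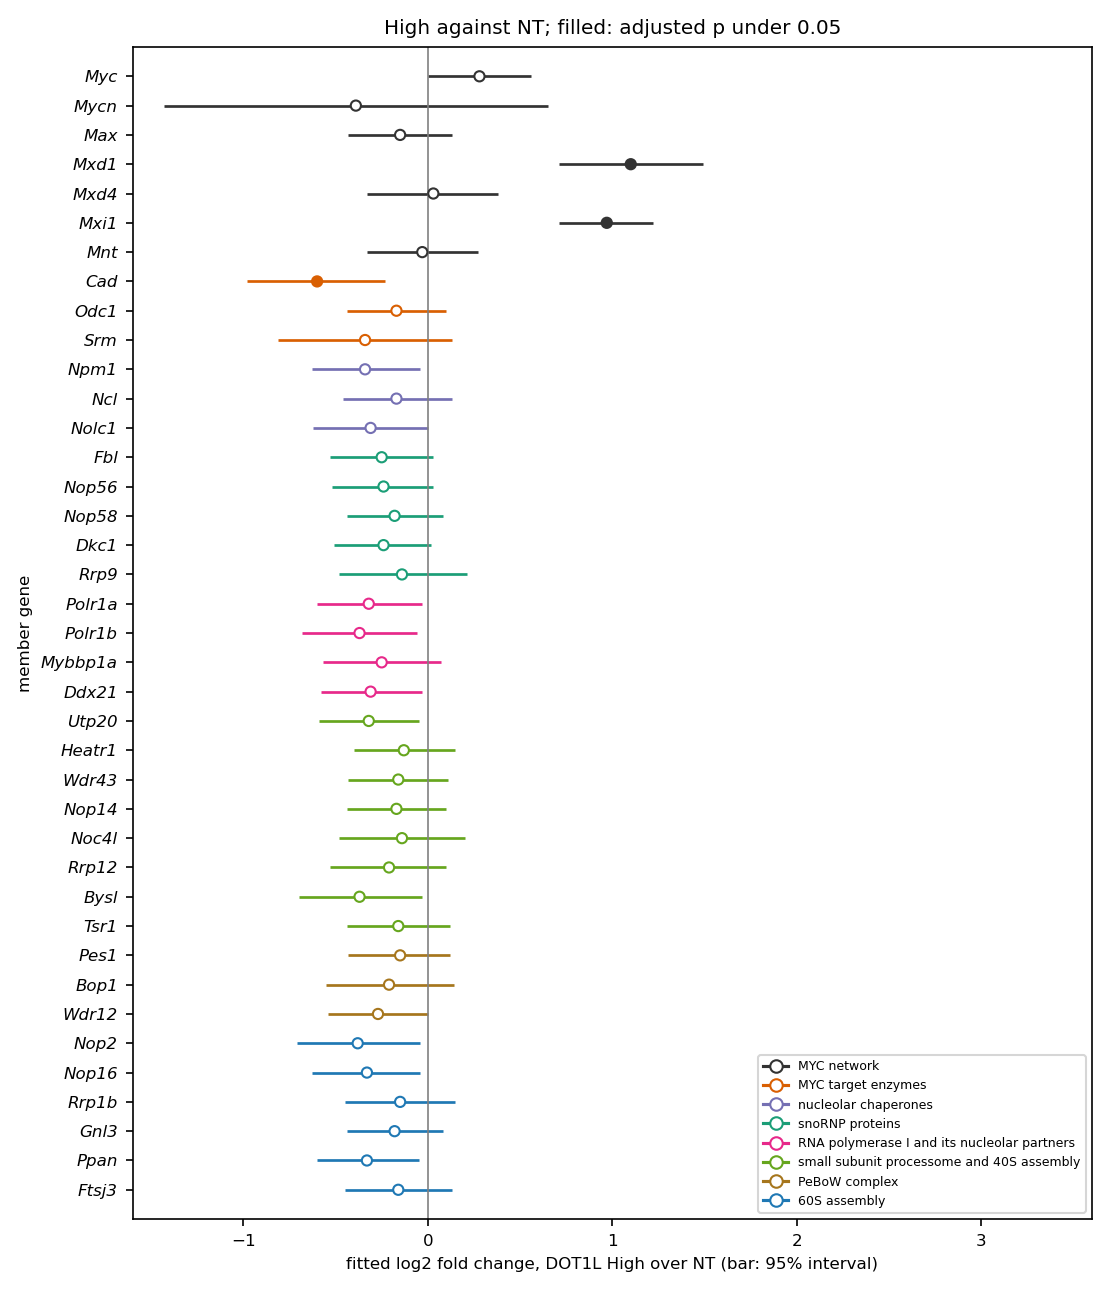
Fitted log2 fold change of each tested member for High over NT (x axis, log2 units), coloured by role, with bars for the 95% interval and filled points for an adjusted p under 0.05. Mxd1 and Mxi1 stand near 1 on the log2 scale, Cad is the filled point below 0, and every nucleolar gene lies between -0.38 and -0.13.

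Mxi1, which encodes a MAX partner that represses E-box genes (chromosome 19, 53310518 to 53375810, plus strand), had 54.9, 74.9 and 104.3 CPM in NT, Low and High of K3117 and 70.3, 101.0 and 141.4 CPM in K3174. The level was lowest in NT and highest in High in both leukemias. Mxi1 was the single member for which no pair of the 3 groups overlapped. Over all genes, both libraries stood above in 25.3% for High over NT, 15.8% for Low over NT and 19.1% for High over Low. The share with all of these at once was not counted. High was 1.95-fold over NT (log2 0.97 ± 0.12 SE, edgeR adjusted p = 0.00014), Low 1.40-fold over NT (0.49 ± 0.12, adjusted p = 0.044), and High 1.40-fold over Low (0.48 ± 0.11, adjusted p = 0.032). Mxi1 was the member called for Low over NT, where 2.05% of all genes were higher and 1.29% lower (3.34% in all), and for High over Low, where 4.12% were higher and 1.35% lower (5.48% in all). DESeq2 made the same call in both, with 2.41% and 1.31% of all genes in the first and 4.12% and 1.44% in the second. High over NT and Low over NT share the NT libraries, and every pair of comparisons shares a group.

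Mxi1 was also the member that differed in level between the leukemias, 1.33-fold higher in K3174 (log2 0.41 ± 0.09, adjusted p = 0.017 by edgeR, with 3.05% of all genes higher and 6.32% lower, 9.37% in all). DESeq2 called it as well, with 3.01% and 5.42% of all genes. Its change over the labels was alike in size in both, 0.92 and 1.01 log2 units for High minus NT in K3117 and K3174. The slope per label step differed by 0.04 (95% interval -0.16 to 0.24, adjusted p = 0.90). Without the replicate block Mxi1 had an adjusted p of 0.078 for High over NT, 0.87 for Low over NT and 0.69 for High over Low. The call for Low over NT was lost without either Low library (adjusted p = 0.25 without K3117 Low and 0.49 without K3174 Low). The call for High over Low was lost without any of the 4 Low and High libraries (adjusted p between 0.20 and 0.45), and so was that between leukemias (between 0.12 and 0.16).

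Mxd1, a repressor of the same family that is known to increase during myeloid differentiation (chromosome 6, 86647042 to 86669161, minus strand), had 50.8, 75.3 and 83.4 CPM in K3117 NT, Low and High, and 32.8, 48.7 and 90.2 CPM in K3174. Both High libraries were above both NT libraries (25.3% of all genes) and both Low libraries (19.1% of all genes). Low and NT overlapped because K3174 Low lay below K3117 NT. High was 2.14-fold over NT (log2 1.10 ± 0.18, edgeR adjusted p = 0.0011). The steps from NT to Low (0.57 ± 0.17, adjusted p = 0.12) and from Low to High (0.53 ± 0.17, adjusted p = 0.12) did not pass. High minus NT was 0.72 log2 units in K3117 and 1.46 in K3174. The test of that difference per label step gave 0.37 ± 0.12 (adjusted p = 0.51). Without the replicate block the adjusted p for High over NT was 0.10, and leaving out each library in turn gave fold changes between 0.72 and 1.45 log2 units, each past the threshold.

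Myc itself (chromosome 15, 61985391 to 61990374, plus strand) stood at 126.4, 177.9 and 170.6 CPM in K3117 NT, Low and High and at 139.9, 148.0 and 153.6 CPM in K3174. All 4 Low and High libraries were above both NT libraries, a pattern shared by the groups of 25.3% of all genes for High and of 15.8% for Low. The difference was 1.21-fold for High (log2 0.28 ± 0.13, edgeR adjusted p = 0.17) and 1.22-fold for Low (0.29 ± 0.13, adjusted p = 0.36), and neither passed. Without the K3174 NT library the difference for High was 0.46 and passed (adjusted p = 0.0079). High and Low were at -0.01 ± 0.13 of each other (95% interval -0.28 to 0.27).

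Set against its antagonists, Myc had a CPM ratio to Mxi1 of 2.3, 2.37 and 1.64 in K3117 NT, Low and High and of 1.99, 1.47 and 1.09 in K3174. The ratio to Mxd1 was 2.49, 2.36 and 2.05 in K3117 and 4.26, 3.04 and 1.7 in K3174. These 2 ratios were lowest in High in both leukemias, while those to the antagonists that did not pass ran otherwise. The ratios restate the levels of the same genes, so this split repeats the calls and is no separate result. The ratio to Mnt was 2.62, 3.12 and 3.49 in K3117 and 2.49, 2.96 and 2.89 in K3174, lowest in NT in both. The ratio to Mxd4 was 1.89, 2.93 and 3.22 in K3117 and 2.94, 2.82 and 2.48 in K3174, highest in High in K3117 and lowest there in K3174. Only changes of such a ratio between libraries can be read, since CPM are not per length. Per kilobase of exon in NT, Myc was at 49.0 CPM, Max at 26.1, Mnt at 11.3, Mxi1 at 9.18, Mxd4 at 6.74, Mxd1 at 5.91 and Mycn at 0.300 CPM. The exon length holds every annotated exon base of a gene over all its transcripts. The order per kilobase depends on that choice and is not an order of transcript levels.

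**Figure D2:**
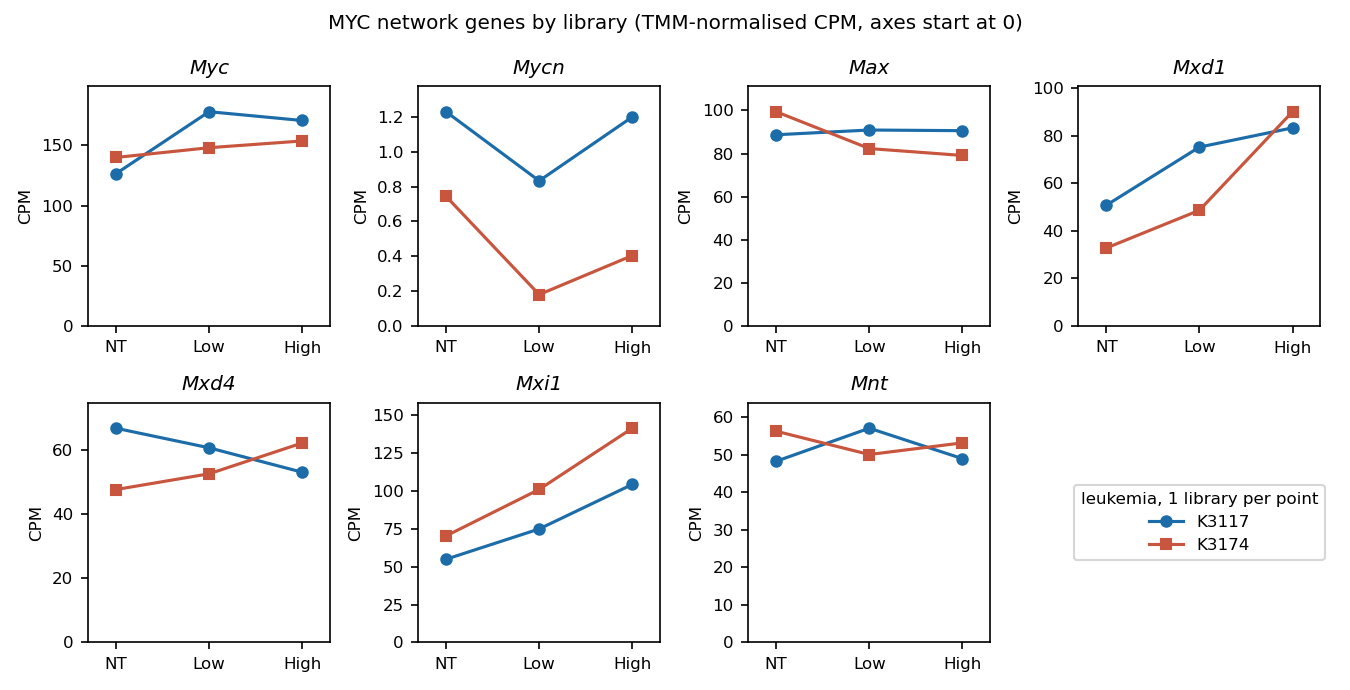
CPM (y axis, from 0) of the 7 MYC network genes in the libraries labelled NT, Low and High (x axis), with 1 point per library and a line for each leukemia. Mxi1 and Mxd1 climb in both leukemias, Myc lies lowest in NT, and the lines of Mxd4 cross.

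The other network genes did not pass in any comparison. Max, the shared partner, had 88.7, 90.9 and 90.6 CPM in K3117 and 99.4, 82.3 and 79.1 CPM in K3174 (NT, Low and High in that order, as in what follows). Groups overlapped, and the fitted difference between High and NT was -0.15 ± 0.13 (edgeR adjusted p = 0.50).

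Mnt, the broadly expressed MAX-binding repressor, had 48.2, 57.0 and 48.9 CPM in K3117 and 56.2, 50 and 53.1 CPM in K3174, with overlapping groups and a difference of -0.03 ± 0.14 (adjusted p = 0.92). Mxd4, another MXD repressor, had 66.7, 60.6 and 53.0 CPM in K3117 but 47.6, 52.5 and 62.1 CPM in K3174. Its level thus went down over the labels in K3117 and up in K3174. The fitted difference for High over NT was 0.03 ± 0.16 (adjusted p = 0.94) and turned to -0.03 with library sizes alone and to -0.07 with upper quartile factors. The difference in slope was 0.36 ± 0.09 per label step (edgeR adjusted p = 0.50). Mycn, the paralogue of Myc that is best known from neural tumours, was barely detected. Its raw counts were 41, 26 and 27 in K3117 and 17, 6 and 12 in K3174, and the groups overlapped, with differences of -0.39 ± 0.47 for High over NT (adjusted p = 0.66) and -1.40 ± 0.40 for K3174 over K3117 (adjusted p = 0.052).

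Cad was the member that fell in High. It encodes the enzyme that carries out the first steps of pyrimidine synthesis (chromosome 5, 31054780 to 31078479, plus strand). Levels were 351.4, 414.7 and 299.9 CPM in K3117 and 440.0, 308.9 and 228.2 CPM in K3174. Both High libraries were below both NT libraries (25.3% of all genes) and both Low libraries (17.3% of all genes), while NT and Low overlapped. High was 0.658-fold of NT (log2 -0.60 ± 0.17, edgeR adjusted p = 0.030), while the steps from NT to Low (-0.15 ± 0.17, adjusted p = 0.88) and from Low to High (-0.45 ± 0.17, adjusted p = 0.19) did not pass. Within leukemias High minus NT was -0.23 in K3117 and -0.95 in K3174, with a slope difference of -0.36 ± 0.13 (adjusted p = 0.53). The call was lost without the replicate block (adjusted p = 0.20), without K3174 NT (-0.22, adjusted p = 0.26) and without K3174 High (-0.43, adjusted p = 0.21).

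The polyamine enzymes did not pass. Odc1, ornithine decarboxylase, had 356.7, 370.2 and 354.3 CPM in K3117 and 438.4, 406.5 and 347.2 CPM in K3174, and -0.17 ± 0.12 for High over NT (edgeR adjusted p = 0.41). The K3117 values differed from NT by at most 0.05 log2 units, and those of K3174 went down over the labels. Srm, spermidine synthase, which was singled out after its values were seen, had 191.1, 268.1 and 225.1 CPM in K3117 and 324.3, 227.6 and 177.7 CPM in K3174. It was thus lowest in NT of K3117 and highest in NT of K3174. Its slope over the labels differed by -0.55 ± 0.14 log2 units per step (K3174 minus K3117), the most negative among the members, which edgeR did not call (adjusted p = 0.49) and DESeq2 did.

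The 29 tested nucleolar genes of 30 showed small differences in the same direction. For High over NT, all 29 fitted log2 fold changes were below 0, as were 51.4% of all genes, with a median of -0.24 against -0.01 over all genes and a range from -0.38 to -0.13. None passed by edgeR or by DESeq2, and 11 had an unadjusted p under 0.05 with a lower level, against 13.2% of all genes. In 19 of the 29 both High libraries were below both NT libraries (25.3% of all genes). Without the K3117 NT library 18 of the 29 passed, with 26.6% of all genes called in that fit, and the median was -0.41. It was -0.08 without K3174 NT, -0.10 without K3174 High and -0.38 without K3117 High. Upper quartile factors moved the median of all genes to -0.11 and that of the nucleolar genes to -0.34.

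The size of these differences was not the same in the 2 leukemias. In K3174, High was below NT for 29 of 29 nucleolar genes (50.2% of all genes), with a median log2 difference of -0.43 and values between -0.70 and -0.17. In K3117 it was below NT for 19 of 29 (51.4% of all genes), with a median of -0.04 and values between -0.28 and 0.22. With 1 library per label and leukemia, these values have no replicate. Low minus NT had a median of -0.17 in K3174, where 25 were lower, and of 0.09 in K3117, where 8 were lower. Across the 29 genes the SD of High minus NT was 0.12 in K3117 and 0.13 in K3174, compared with 0.81 and 0.89 across all genes. The sets were not matched for level. All genes include ones with low counts, where log2 differences scatter more, so the SDs are not a like comparison.

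The shape over the labels differed too. In K3174, 25 of 29 had the order NT, Low, High from highest to lowest (29.1% of all genes), whereas in K3117 19 of 29 were highest in Low (26.8% of all genes). K3174 NT was the highest of the 6 libraries for 24 of 29 (20.6% of all genes) and K3174 High the lowest for 21 of 29 (24.3% of all genes). K3174 NT was also the library with the fewest total counts, and K3174 High the one with the most late neutrophil marker counts. K3117 High had nearly as few total counts (23132184 against 22908445) and was highest for 0 and lowest for 2 of 29. What part total counts or late neutrophil cells have in these values was not tested.

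**Figure D3:**
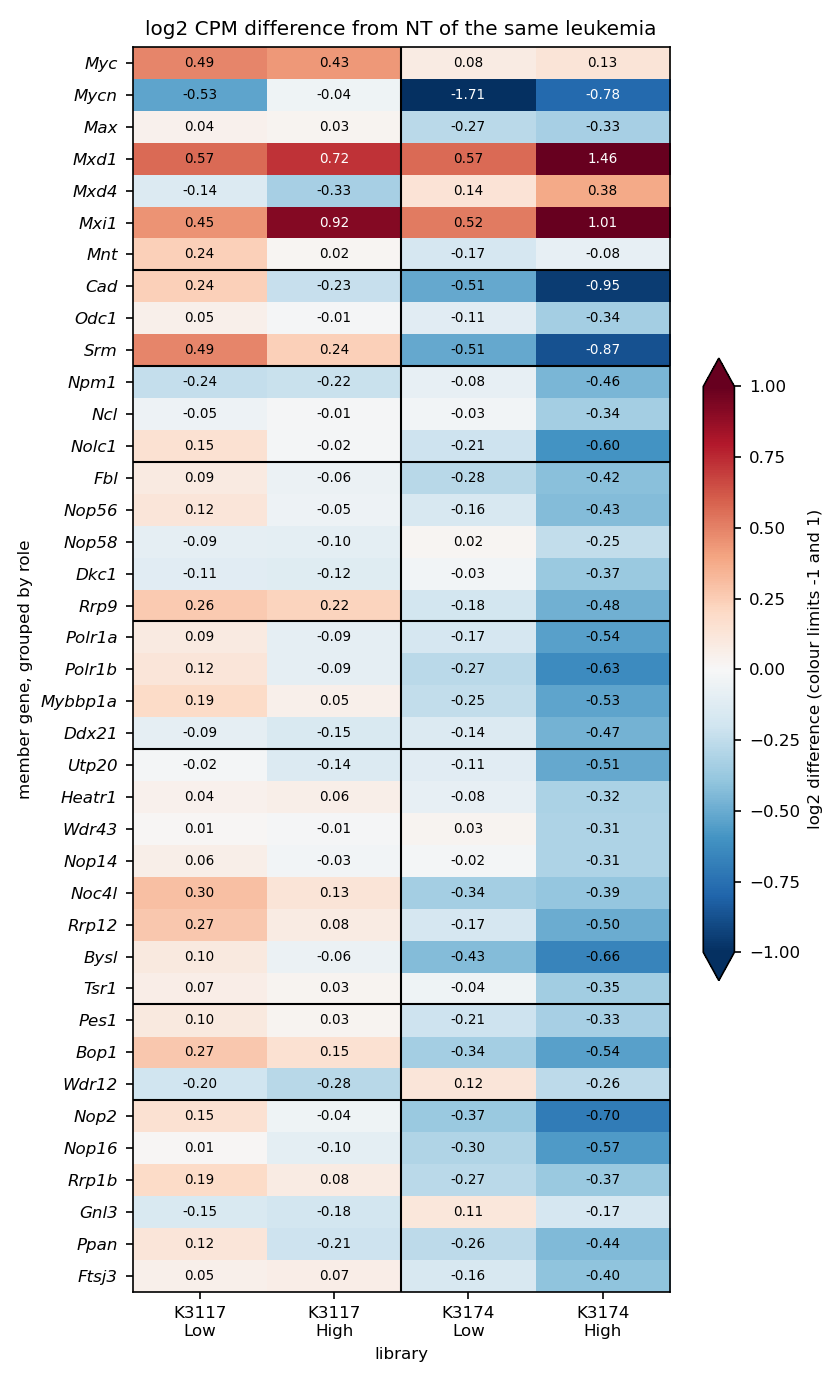
Log2 CPM difference (colour and number) of each tested member from NT of the same leukemia, for the Low and High libraries of K3117 and K3174 (columns), with genes in rows grouped by role. The nucleolar rows are mixed in K3117, with 21 of 29 above 0 in Low and 10 of 29 in High, and negative throughout K3174 High.

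The difference between leukemias was tested as the product of leukemia and label, with the labels coded 0, 1 and 2 as equal steps. No member passed by edgeR, and over all genes 1 did (0.00632%). At an unadjusted p under 0.05, 14 members had a lower and 2 a higher slope in K3174, against 4.05% and 5.01% of all genes. The 14 comprised 12 nucleolar genes with Cad and Srm, and the 2 were Mxd1 and Mxd4. DESeq2 called 1 member, Srm, as lower, and 37 genes over all (0.177% higher and 0.0569% lower). The median slope difference of the nucleolar genes was -0.19 log2 units per step, against -0.00 over all genes. The fit had 2 residual degrees of freedom.

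**Figure D4:**
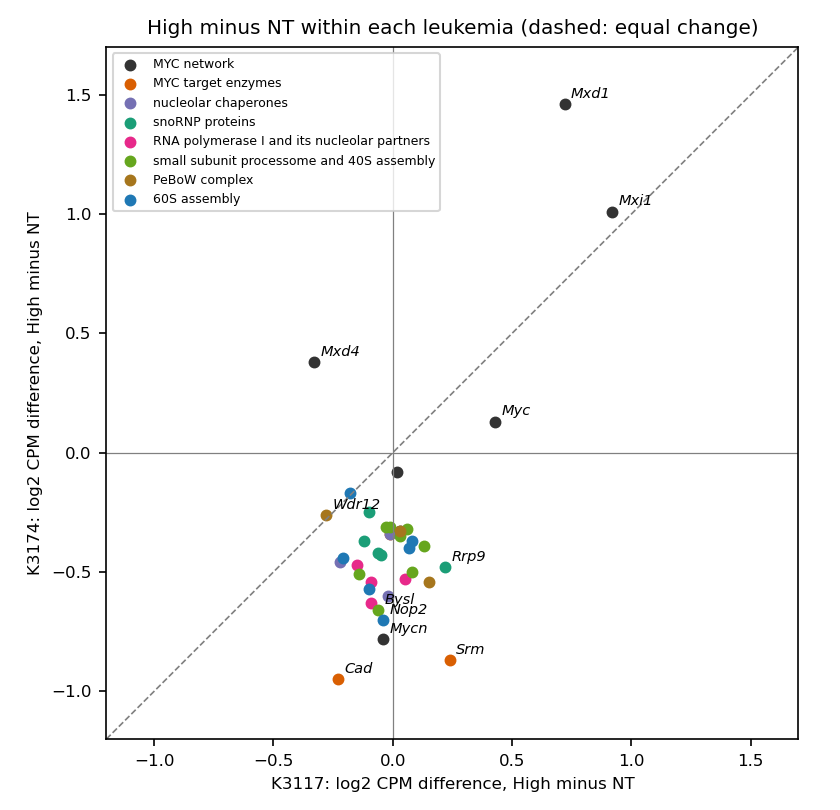
Log2 CPM difference of High minus NT in K3117 (x axis) and in K3174 (y axis) for the 39 tested members, coloured by role, with equal change on the dashed line. Nucleolar genes cluster between -0.28 and 0.22 on the x axis and between -0.70 and -0.17 on the y axis, and Mxi1 lies near the line.

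Npm1 and Ncl had the highest levels of all members per kilobase of exon, with the exon length as defined above. Npm1, nucleophosmin, the abundant chaperone of the granular nucleolus, stood at 864 CPM per kilobase in NT and was first among the 40, followed by Ncl, nucleolin, at 256. Npm1 had 2304.9, 1951.7 and 1981.6 CPM in K3117 and 2302.9, 2179.5 and 1673.2 CPM in K3174. It was the single nucleolar gene with both Low libraries below both NT libraries (15.8% of all genes). Both of its High libraries were below NT as well (25.3% of all genes). Between High and NT the difference was -0.34 ± 0.13 (edgeR adjusted p = 0.12). It passed with library sizes alone (-0.39, adjusted p = 0.048), with upper quartile factors (-0.43, adjusted p = 0.039), with every gene that had a count (-0.34, adjusted p = 0.025) and without K3117 NT (-0.36, adjusted p = 0.047).

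Ncl had 2394.2, 2316.4 and 2383.9 CPM in K3117 and 2819.7, 2753.5 and 2232.7 CPM in K3174. Both High libraries were below both NT libraries (25.3% of all genes), in K3117 by no more than 0.01 log2 units. The difference was -0.17 ± 0.13 (edgeR adjusted p = 0.47). Nolc1, a chaperone of small nucleolar ribonucleoproteins, lay between them at -0.31 ± 0.14 (adjusted p = 0.17).

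The 5 snoRNP proteins belong to particles of small nucleolar RNA and protein that modify or help to cleave ribosomal RNA. They had log2 fold changes between -0.25 and -0.14 for High over NT, with none called. Fbl, fibrillarin, the methyltransferase of box C/D particles, had 201.4, 214.4 and 192.7 CPM in K3117 and 241.0, 198.8 and 179.6 CPM in K3174 (-0.25 ± 0.13, edgeR adjusted p = 0.23). Both High libraries were the lowest of their leukemia and below both NT libraries (25.3% of all genes for the latter). Without K3117 NT it passed (-0.43, adjusted p = 0.0084).

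Rrp9, a protein of the U3 particle that cleaves the precursor RNA, had 56.8, 67.9 and 66 CPM in K3117 and 83.7, 74.1 and 60.1 CPM in K3174. Its High libraries lay between the NT libraries (-0.14 ± 0.16, edgeR adjusted p = 0.65), since NT was lowest in K3117 and highest in K3174. It passed without K3117 NT (-0.41, adjusted p = 0.021) and turned to 0.15 without K3174 NT. Nop56 and Nop58, the core of box C/D particles, and Dkc1, the pseudouridine synthase of box H/ACA particles, lay between -0.24 and -0.18.

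Polr1a and Polr1b encode the large catalytic subunits of RNA polymerase I, and Mybbp1a and Ddx21 are nucleolar proteins linked to its transcription. Polr1b had 92.4, 100.4 and 86.6 CPM in K3117 and 122.7, 101.8 and 79.2 CPM in K3174. Both High libraries were below both NT libraries (25.3% of all genes) and both Low libraries (17.3% of all genes). The share below NT and Low at once was not counted, for Polr1b or for the genes below with that order. The difference of -0.37 ± 0.14 did not pass (edgeR adjusted p = 0.10). Mybbp1a had 606.4, 690.4 and 626.3 CPM in K3117 and 825.5, 692.4 and 570.3 CPM in K3174. High lay on either side of K3117 NT (-0.25 ± 0.15, edgeR adjusted p = 0.30). Without K3117 NT both passed, Polr1b at -0.60 (adjusted p = 0.00044) and Mybbp1a at -0.50 (adjusted p = 0.0025), and Polr1b also passed with upper quartile factors (-0.46, adjusted p = 0.034) and with every gene that had a count (-0.37, adjusted p = 0.043). Without K3174 NT, Mybbp1a turned to 0.01. Polr1a (-0.32 ± 0.13) and Ddx21 (-0.31 ± 0.13), an RNA helicase, had adjusted p-values of 0.13 each.

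The small subunit processome and later factors build the 40S subunit. Of the 8 genes in this group, Bysl, a late nuclear 40S factor, had the most negative difference. It had 62.9, 67.3 and 60.4 CPM in K3117 and 87.4, 64.8 and 55.2 CPM in K3174, with both High libraries below the rest (-0.37 ± 0.15, edgeR adjusted p = 0.14). It passed without K3117 NT (-0.64, adjusted p = 0.00023) and with upper quartile factors (-0.46, adjusted p = 0.049). Bysl shares 9.37% of its exon bases with the opposite-strand gene Ccnd3, and whether counting used strand is not given in the sources used here. Heatr1, a large scaffold of the processome, had 220.2, 226.9 and 229.9 CPM in K3117 and 298.7, 282.7 and 239.0 CPM in K3174. All K3174 values of Heatr1 were above all K3117 values (log2 0.27 ± 0.10, adjusted p = 0.15), and High over NT gave -0.13 ± 0.13 (adjusted p = 0.57), or 0.03 without K3174 High. The share of all genes with every K3174 value above every K3117 value was not counted. The other 6 (Utp20, Wdr43, Nop14, Noc4l, Rrp12 and Tsr1) lay between -0.32 and -0.14. For Tsr1, 32.3% of exon bases are shared with Srr on the opposite strand, so its counts are uncertain.

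PES1, BOP1 and WDR12 form the PeBoW complex, which is required to mature the RNAs of the 60S subunit. Its genes differed in the order of their levels over the labels. Wdr12 had 166.9, 145.0 and 137.2 CPM in K3117 and 152.7, 165.9 and 127.3 CPM in K3174 (-0.27 ± 0.12, edgeR adjusted p = 0.17), with both High libraries lowest. Pes1 had 161.2, 172.8 and 164.5 CPM in K3117 and 206.6, 178.0 and 164.0 CPM in K3174 (-0.15 ± 0.12, adjusted p = 0.48). In K3117 High was 0.28 log2 units below NT for Wdr12 but 0.03 and 0.15 above it for Pes1 and Bop1, and without K3174 NT Pes1 turned to 0.02. The slope difference was 0.01 for Wdr12 (adjusted p = 0.99), -0.18 for Pes1 (0.56) and -0.34 for Bop1 (0.51).

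Among 60S assembly genes, Nop2, a ribosomal RNA methyltransferase, had the most negative difference of all nucleolar genes. It had 171.4, 190.5 and 166.9 CPM in K3117 and 226.9, 175.1 and 139.2 CPM in K3174, with both High libraries lowest (-0.38 ± 0.15, edgeR adjusted p = 0.12). It passed without K3117 NT (-0.67, adjusted p = 5.7e-05), without K3117 High (-0.59, adjusted p = 0.033), with upper quartile factors (-0.47, adjusted p = 0.041) and with every gene that had a count (-0.39, adjusted p = 0.024). Rrp1b, a nucleolar regulator of late 60S steps, had 102.7, 117.4 and 109.0 CPM in K3117 and 136.6, 113.2 and 105.5 CPM in K3174. High lay just above NT in K3117 and below it in K3174 (-0.15 ± 0.14, adjusted p = 0.54). Rrp1b passed without K3117 NT (-0.38, adjusted p = 0.024) and turned to 0.09 without K3174 NT. Gnl3, the GTPase nucleostemin, was alike in both leukemias, 0.18 and 0.17 log2 units lower in High than NT (-0.18 ± 0.12, adjusted p = 0.37). Nop16, Ppan and Ftsj3 lay between -0.33 and -0.16.

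Summed over the 30 nucleolar genes, the level was 9990.4, 9779.5 and 9505.1 CPM in K3117 and 11641.1, 10785.7 and 8711.7 CPM in K3174. The sum of K3174 was thus the higher of the 2 in NT and in Low, and the lower in High. Each of the 6 nucleolar role groups had its highest sum in K3174 NT and its lowest in K3174 High, while the MYC network had its highest sum in K3174 High.

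**Figure D5:**
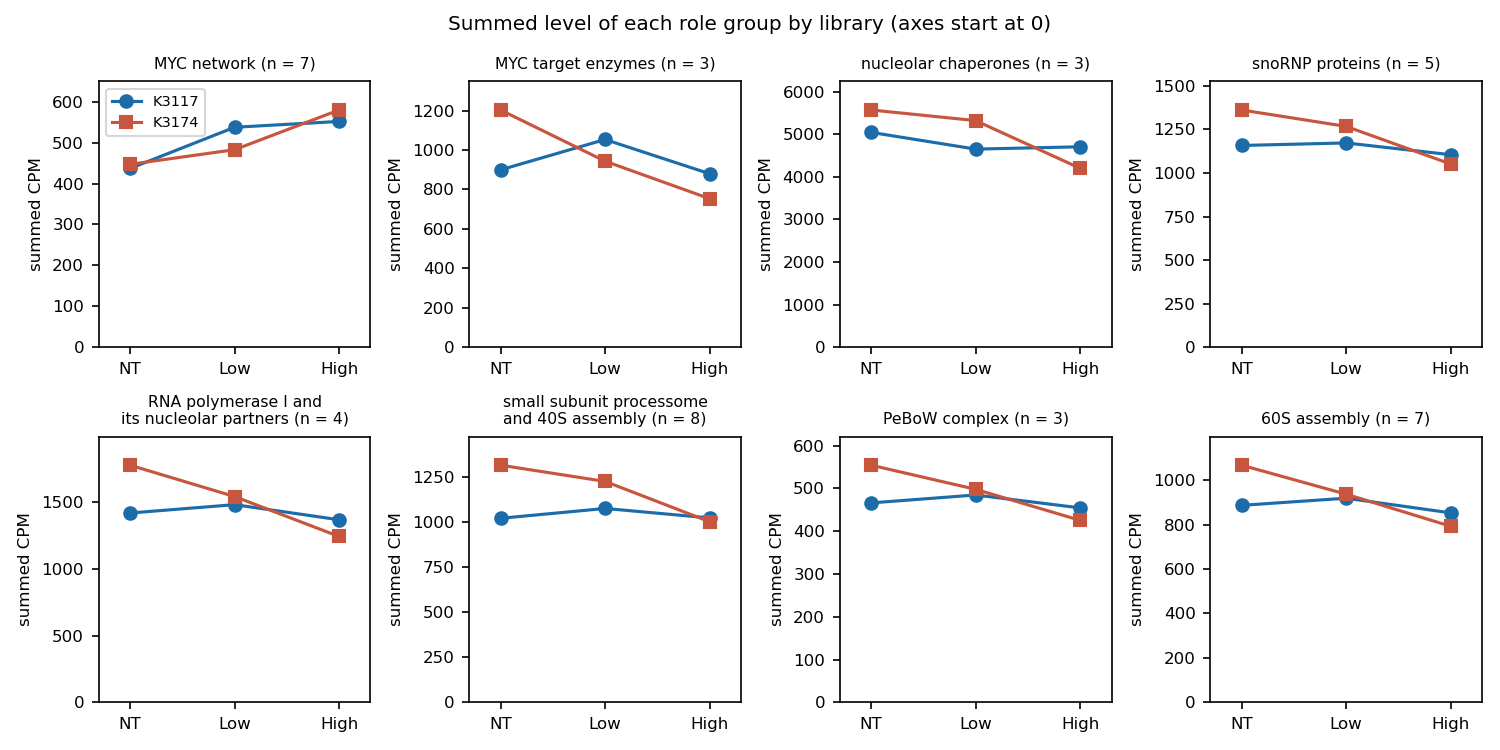
Summed CPM (y axis, from 0) of each role group in the libraries labelled NT, Low and High (x axis), with 1 point per library and a line for each leukemia. In the nucleolar groups and the MYC target enzymes the K3174 line starts above the K3117 line and ends below it.

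For Low over NT, 24 of the 29 nucleolar genes were below 0, as were 52.7% of all genes. The median was -0.05 (from -0.17 to 0.04), and it was 0.12 without K3174 NT. None of the 29 passed by edgeR or DESeq2, and none had an unadjusted p under 0.05, against 6.29% higher and 6.97% lower among all genes. For High over Low all 29 were below 0, as were 49.7% of all genes, with a median of -0.18 (from -0.28 to -0.09). None passed by edgeR or DESeq2 or at an unadjusted p under 0.05 (9.98% higher and 5.31% lower among all genes), and in 25 of the 29 both High libraries were below both Low libraries (17.3% of all genes). Between leukemias 3 of 29 were below 0 for K3174 over K3117, against 49.9% of all genes, with a median of 0.10. None passed by edgeR or DESeq2, and 1, Heatr1, was higher at an unadjusted p under 0.05 (7.41% of all genes).

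Other genes of the same processes were examined in 6 lists with 256 genes tested of 263 listed. They were chosen for their function but, like the members, with earlier results of these data known. For High over NT, 9 of the 256 passed by edgeR, 1 higher and 8 lower, against 10% and 7.32% of all genes, so the lists held fewer calls than the table as a whole. Among MYC-responsive growth and metabolism genes, 4 of 50 fell and none rose, with a median of -0.23. Prmt5, an arginine methyltransferase, went from 163.7 and 212.7 CPM in NT of K3117 and K3174 to 118.8 and 107.9 CPM in High (-0.73 ± 0.14, edgeR adjusted p = 0.0041). Both High libraries of Prmt5 were below all others, and of the 13 alternatives run, the call was lost without the replicate block (adjusted p = 0.059).

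The other 3 were Gart, a purine synthesis enzyme (-0.45 ± 0.13, edgeR adjusted p = 0.030), Shmt2, the mitochondrial serine hydroxymethyltransferase (-0.47 ± 0.14, adjusted p = 0.036), and Slc19a1, a folate carrier (-0.57 ± 0.17, adjusted p = 0.040). These enzymes and the carrier feed nucleotide synthesis, as does Cad. So do Paics, Ppat, Pfas, Atic, Umps and Ctps of the same list, which did not pass. Each of the 3 missed the threshold without K3174 NT (adjusted p = 0.13, 0.22 and 0.35), without K3174 High (0.43, 0.26 and 0.45) and without the replicate block (0.12, 0.15 and 0.20).

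Of 23 other RNA polymerase I genes, Polr1c (-0.48 ± 0.14, edgeR adjusted p = 0.036) and Polr2e (-0.47 ± 0.15, adjusted p = 0.048), subunits shared with other polymerases, fell, with a median of -0.10. Both were lost without K3174 NT (adjusted p = 0.19 and 0.35), K3174 Low (0.052 and 0.053) or K3174 High (0.44 and 0.47) and without the replicate block (0.18 and 0.22), and Polr1c also without K3117 High (0.054). Of 50 other 40S genes, Riok3, an atypical kinase, rose (0.57 ± 0.13, adjusted p = 0.0095), and Rrp8, a nucleolar methyltransferase (-0.51 ± 0.13, adjusted p = 0.017), and Nat10, an RNA acetyltransferase (-0.48 ± 0.14, adjusted p = 0.034), fell, with a median of -0.18. Without the replicate block they had adjusted p-values of 0.12, 0.13 and 0.16. Riok3 was also lost without K3117 High (0.057), Rrp8 without K3117 High (0.084) or K3174 High (0.20), and Nat10 without K3174 NT (0.22) or K3174 High (0.46).

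No gene passed by edgeR or DESeq2 among 55 other 60S assembly genes (median -0.15, 3 lower at an unadjusted p under 0.05), 60 cytoplasmic ribosomal protein genes (median -0.10, 1 lower) and 18 other MYC, MAX and MLX network genes (median -0.00, 2 higher and 1 lower). At an unadjusted p under 0.05 for High over NT, 15.5% of all genes were higher and 13.2% lower. In the lists with calls, 17 of 50 MYC-responsive, 11 of 50 other 40S and 6 of 23 other RNA polymerase I genes were lower, and 1, 1 and 0 higher. For Low over NT all 60 ribosomal protein genes were below 0 (52.7% of all genes), with a median of -0.11 against -0.01 over all genes. Of these 60, 1 was lower at an unadjusted p under 0.05 (6.97% of all genes). For High over Low their median was 0.01. Within K3174, High was below NT for 45 of 50 other 40S genes (median -0.33), 51 of 55 other 60S genes (median -0.29) and 46 of 50 MYC-responsive genes (median -0.34), against 50.2% of all genes. In K3117 the same counts were 27, 28 and 30 (medians -0.02, -0.02 and -0.04), against 51.4% of all genes. The other 3 lists had closer counts in K3174 and K3117, with 16 and 15 of 23 other RNA polymerase I genes (medians -0.17 and -0.07), 9 and 9 of 18 other network genes (0.04 and 0.00) and 52 and 41 of 60 ribosomal protein genes (-0.18 and -0.04). No gene of the 6 lists passed by edgeR for Low over NT, High over Low, K3174 over K3117 or the difference in slope. At an unadjusted p under 0.05 the MYC-responsive list had 7 of 50 lower for High over Low (5.31% of all genes), and DESeq2 called 2 of the list. That list had 17 of 50 with a lower slope in K3174 (4.05% of all genes), and DESeq2 called none. Lower slopes at that cut were also found in 14 of 50 other 40S and 7 of 55 other 60S genes. The same held for 3 of 23 other RNA polymerase I, 2 of 60 ribosomal protein and 2 of 18 other network genes. For High over Low, 4 of 50 other 40S genes were lower and 1 higher. There 3 of 55 other 60S and 1 of 23 other RNA polymerase I genes were lower.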

How the data were processed

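The authors deposited 1 table of raw counts per gene, whole numbers with 1 column per library. Per the submitters' processing notes the tools were STAR, STAR-Fusion, kallisto and DESeq2 and the build mm10, with no version and no role stated. Which tool counted, with what annotation and whether by strand, is not given in the sources used here. The table has 49585 gene IDs, 23286 of them without counts. Symbols were matched for 99.5% of IDs (259 unmatched), and positions are from GENCODE on GRCm38, the assembly of mm10. Reads were 150 bp pairs, per the labels.

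Here the counts went into edgeR 4.0.16 under R 4.3.3 (filterByExpr, TMM factors from 0.973 to 1.04, quasi-likelihood test). The model had the label and the leukemia as terms, 2 residual and 9.38 prior degrees of freedom, and a biological coefficient of variation of 12%. The slope fit held leukemia, label code and their product, with 6.19 prior degrees of freedom. Genes passed at an adjusted p under 0.05 (Benjamini-Hochberg, over 15812 genes). DESeq2 1.42.0 was an alternative. Intervals are 95% intervals of the fit and cover only the fitted spread. Differences within a leukemia use log2 CPM with a prior count of 2. The script was tested on simulated data.

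The block rests on the K number in each title. Deviations of the 2 leukemias correlated across 15812 genes at 0.57 (NT and Low), 0.438 (NT and High) and 0.64 (Low and High). The 2 libraries of each label differed by far more than counting noise (the lowest chi-square divided by its degrees of freedom was 23.3), and each counts as its own sample.

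Members and lists were chosen with earlier results of these data known. Named were the 7 network genes, every called member, the members with the highest and lowest fold change for High over NT in each role group, and up to 4 called genes per pathway list. Protein sequences were not used here. The 8 marker lists held 66 genes, 65 of them in the table. The result of 1 of these lists is not reported here.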

Additional observations from a re-analysis of the deposited data

How the results depend on the processing

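For High over NT, 17.3% of all genes passed. The share was 17.4% with library sizes alone and 18.7% with upper quartile factors. It was 12.8% with every gene that had a count and 3.12% with no replicate block. The count of members past the threshold for High over NT was 3. It became 6 with library sizes alone, 12 with upper quartile factors, 7 with every gene that had a count, and 0 with no replicate block, and it ran from 2 to 22 when single libraries were left out (22 without K3117 NT, 5 without K3117 High, 2 without K3174 High). For Low over NT, 3.34% of all genes passed. The share was 3.19% with library sizes alone and 3.5% with upper quartile factors. It was 3.38% with a mean CPM of at least 5 and 4.07% with every gene that had a count. The count of members for Low over NT was 1. It became 0 with library sizes alone, with upper quartile factors, with a mean CPM of at least 5 and with no replicate block, 2 with every gene that had a count, and 0 to 6 without single libraries (6 without K3117 NT, 3 without K3174 NT, 2 without either High library, 0 without either Low library). For High over Low, 5.48% of all genes passed. The share was 4.93% with library sizes alone, 5.29% with upper quartile factors and 5.42% with every gene that had a count. The count of members for High over Low was 1. It became 0 with library sizes alone, upper quartile factors and no replicate block, 3 with every gene that had a count, and 0 to 6 without single libraries (6 without either NT library, 3 without K3117 High, 0 without the other 3). Between leukemias the count was 1, with 2 under RLE and under upper quartile factors, 3 with every gene that had a count and 0 to 4 without single libraries (4 without either NT library, 0 without either Low library). For the difference in slope the count was 0, with 1 under DESeq2 and 1 with every gene that had a count, and 0 in every fit without a single library or with Low and High pooled. Where a left-out library leaves a label with 1 sample, that sample is assumed to vary like the others. Between leukemias 9.37% of all genes passed. The share was 9.61% under RLE, 9.59% under upper quartile factors and 7.89% with every gene that had a count. For the difference in slope the share was 0.00632%, with 0.234% under DESeq2 and 1.05% with every gene that had a count. Without the replicate block no gene of the table passed for Low over NT or High over Low.

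Directions for High over NT turned when single libraries were left out for Mycn (-1.04 to 0.07), Max (-0.32 to 0.02), Mxd4 (-0.26 to 0.30), Mnt (-0.16 to 0.10), Rrp9 (-0.41 to 0.15), Mybbp1a (-0.50 to 0.01), Heatr1 (-0.30 to 0.03), Pes1 (-0.32 to 0.02) and Rrp1b (-0.38 to 0.09), none of which passed with all libraries. Mxd4 also turned with library sizes alone (-0.03) and with upper quartile factors (-0.07). The nucleolar median for Low over NT ranged from -0.21 to 0.12. The cause was not tested. Of 33 gene results examined under 427 alternatives, 15 were called. Alternatives of these kept the call 145 times and lost it 49 times, and none reversed a called direction. The nucleolar medians within each leukemia kept their direction with prior counts of 0.5 and 5 and with library sizes alone. Mycn, with 6 to 41 counts per library, had the widest intervals of the members tested.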
